A study of Homo sapiens with 8 samples.

Results

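ASNS, SESN2, STC2 and PCK2 are stress targets of the transcription factor ATF4, and their expression was followed in 4 human multiple myeloma cell lines with and without knockdown of MMSET I. They were taken as the rows of the array table that carry these symbols in the platform annotation: 4 rows, 1 per gene, out of 44629 rows and 14812 named genes. All 4 genes were bright enough to be among the 11109 genes tested. They had been selected on their measured knockdown difference in 1 line, KMS11, where they were lower than in control cells, so their KMS11 differences, and any mean that contains them, are given here as a description without a test. Whether ATF4 occupied these genes was not measured, so the name rests on what is known of them.

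ATF4 is a basic leucine zipper protein that cells translate more when the initiation factor eIF2 is phosphorylated, as happens when amino acids run short, when unfolded proteins gather in the endoplasmic reticulum or when heme is lacking. It pairs with C/EBP proteins on composite sites and turns on genes for amino acid synthesis and uptake, for charging of tRNA and for restraint of growth signals. Plasma cells and myeloma cells secrete large amounts of immunoglobulin and are known for their dependence on such stress responses.

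The knockdown arrays came from KMS11, KMS18, KMS34 and OPM2 cells that received an shRNA against MMSET I, a short isoform of the histone methyltransferase NSD2, and the control arrays from cells of the same 4 lines labelled control. All 4 lines are t(4;14) myeloma lines per the labels, a translocation that places NSD2 under immunoglobulin enhancers, so knockdown and control cells share it. Cells were infected with lentivirus with polybrene at 8 µg/mL and collected 48 h after the medium was changed, per the labels. The series text mentions shRNA treatment of KMS11 alone, lasting 72 h, and how this relates to the other 3 lines is not given there. The shRNA sequence and the kind of control are not given in the sources used here. Each line contributed 1 knockdown and 1 control array (n = 4 lines per group, 8 arrays of the GeneChip Human Gene 2.0 ST type), so the lines are the replicates and a difference within a line has none. The deposited values are linear intensities, with array medians of 49.3 to 53.5.

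The row of the targeted gene was lower with the knockdown in each line. What share of tested genes was lower in every line is not given here. NSD2 read 670 (KMS11), 549 (KMS18), 677 (KMS34) and 728 (OPM2) in knockdown arrays, against 733, 680, 744 and 814 in control arrays. These values come from a single row in which MMSET I and the longer isoforms cannot be told apart. The depth of the MMSET I knockdown can therefore not be read from them. Of 8 measured plasma cell markers, 5 were bright in all arrays: IRF4 (2254 or more), XBP1, SLAMF7, SDC1 (syndecan, CD138, 844 or more) and MZB1 (778 or more). CD38 ranged from 50.6 to 416, POU2AF1 from 70.7 to 88.4 and CD27 from 56.2 to 86.6. Of the measured markers of T and NK, myeloid, stromal and endothelial cells, none exceeded 154 (S100A9), and IL7R, CD14, LYZ, CD163, DCN and LUM were dim throughout, at 39.2 or less.

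The promoters are shown first because ATF4 acts through short sites near the start of its target genes. Each sequence runs 5′ to 3′ on the gene's own strand, from 250 bases before to 50 bases after the transcription start in RefSeq (GRCh38.p14). The ASNS window is chr7:97872359-97872658 on the minus strand, SESN2 chr1:28259268-28259567 on the plus strand, STC2 chr5:173328365-173328664 on the minus strand and PCK2 chr14:24094061-24094360 on the plus strand. Capitals mark the C/EBP-ATF composite motif TGATGNAA and the motif GTTACAG, both seen in ASNS, and the CCAAT box (ATTGG when it lies on the other strand), seen in the other genes.
ASNS: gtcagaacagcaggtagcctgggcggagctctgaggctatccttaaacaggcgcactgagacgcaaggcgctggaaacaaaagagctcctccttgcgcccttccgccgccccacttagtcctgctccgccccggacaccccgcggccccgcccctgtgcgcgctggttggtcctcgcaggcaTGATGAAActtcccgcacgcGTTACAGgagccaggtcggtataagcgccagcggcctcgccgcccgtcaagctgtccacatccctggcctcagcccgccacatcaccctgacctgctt
SESN2: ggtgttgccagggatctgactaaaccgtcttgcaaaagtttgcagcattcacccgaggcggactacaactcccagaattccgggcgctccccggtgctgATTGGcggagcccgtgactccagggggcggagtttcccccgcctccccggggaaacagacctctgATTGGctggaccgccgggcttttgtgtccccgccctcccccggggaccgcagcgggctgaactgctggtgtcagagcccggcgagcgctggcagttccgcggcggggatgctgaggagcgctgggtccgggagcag
STC2: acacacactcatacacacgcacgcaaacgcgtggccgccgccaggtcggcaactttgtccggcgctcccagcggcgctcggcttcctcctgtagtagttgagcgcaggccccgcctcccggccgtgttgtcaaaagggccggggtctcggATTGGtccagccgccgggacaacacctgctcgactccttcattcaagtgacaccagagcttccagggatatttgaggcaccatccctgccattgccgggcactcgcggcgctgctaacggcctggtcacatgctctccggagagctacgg
PCK2: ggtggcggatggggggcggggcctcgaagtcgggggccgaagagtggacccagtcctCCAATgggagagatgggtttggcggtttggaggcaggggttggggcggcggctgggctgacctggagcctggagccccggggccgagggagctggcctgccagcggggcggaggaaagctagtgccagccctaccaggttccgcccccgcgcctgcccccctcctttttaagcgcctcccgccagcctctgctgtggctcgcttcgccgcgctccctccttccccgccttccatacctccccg

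ASNS was the 1 gene of the 4 whose window held TGATGNAA, as TGATGAAA at bases -68 to -61 from the start. GTTACAG followed at -48 to -42. These letters are those of the nutrient-sensing response elements known from the human ASNS promoter. On either strand, TGATGNAA occurred in 3.62% of the 35116 promoter windows of the same length and GTTACAG in 2.2%. A second RefSeq start of ASNS, whose window lies at chr7:97872116-97872415, held neither motif. SESN2 had CCAAT boxes at -151 to -147 and -86 to -82, STC2 had 1 at -100 to -96 and PCK2 had 1 at -193 to -189, against 34.6% of all windows with at least 1. The cyclic AMP response element TGACGTCA was in none of these windows and in 1.85% of all windows. Only the letters of these windows were searched, and known ATF4 sites farther away or inside the genes are outside them.

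ASNS encodes asparagine synthetase, which makes asparagine from aspartate with glutamine as the nitrogen donor. In RefSeq the noncoding readthrough gene CZ1P-ASNS overlaps it, and whether the row separates them is not known. ASNS had intensities of 210 (KMS11), 386 (KMS18), 848 (KMS34) and 260 (OPM2) in knockdown arrays, against 370, 418, 951 and 277 in the control arrays of the same lines. The knockdown array was the lower of the pair in 4 of 4 lines, far lower in KMS11 and slightly lower in the others. On the log2 scale the difference was -0.82 (KMS11), -0.12 (KMS18), -0.17 (KMS34) and -0.09 (OPM2), so the KMS11 knockdown array held 56.8% of the control level.

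SESN2 encodes sestrin 2, which senses leucine and, when leucine is absent, restrains the growth kinase mTORC1 through the GATOR complexes. Its knockdown arrays read 258 (KMS11), 649 (KMS18), 1138 (KMS34) and 349 (OPM2), and its control arrays 499, 600, 1137 and 293. KMS11 was the 1 line in which the knockdown array was lower, while the KMS34 pair was level and the OPM2 knockdown array was the higher. The log2 differences were -0.95 (KMS11), 0.11 (KMS18), 0.0015 (KMS34) and 0.25 (OPM2). In KMS11 the level was 1.94-fold lower with the knockdown, which placed SESN2 first among the 11109 genes in order of that difference.

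STC2 encodes stanniocalcin 2, a secreted glycoprotein that inhibits the protease PAPP-A and is induced by ER stress. It had intensities of 105 (KMS11), 218 (KMS18), 720 (KMS34) and 110 (OPM2) in knockdown arrays and of 185, 198, 654 and 81.4 in control arrays. The knockdown array was the lower in KMS11 and the higher in the 3 other lines. The log2 differences were -0.82 (KMS11), 0.14 (KMS18), 0.14 (KMS34) and 0.43 (OPM2), and among the 11109 genes STC2 was the sixth lowest in KMS11.

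PCK2 encodes the mitochondrial phosphoenolpyruvate carboxykinase, which turns oxaloacetate into phosphoenolpyruvate and can feed glycolytic intermediates when glucose is scarce. PCK2 had intensities of 99.7 (KMS11), 261 (KMS18), 329 (KMS34) and 159 (OPM2) in knockdown arrays and of 142, 226, 303 and 150 in control arrays. Again KMS11 was the line with the lower knockdown array, and the difference was smaller than for the other genes. It amounted to -0.51 in KMS11 against 0.21 in KMS18, 0.12 in KMS34 and 0.08 in OPM2 on the log2 scale.

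**Figure D1:**
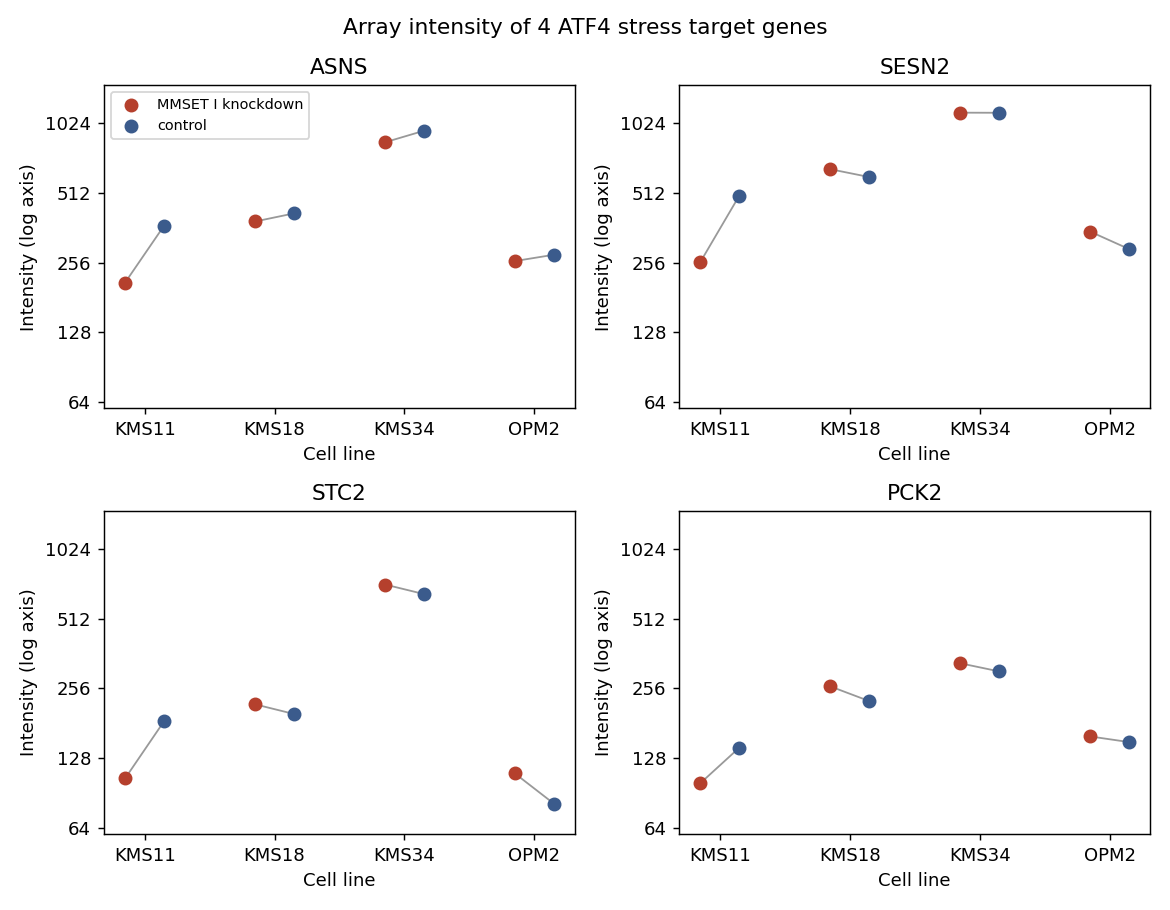
Intensity (log axis) of ASNS, SESN2, STC2 and PCK2 on each of the 8 arrays, by cell line, with the knockdown array to the left and the control array of the same line to the right, joined by a line; each point is 1 array. In KMS11 the knockdown point lies below the control point for each gene, and KMS34 is the brightest line in each panel.

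A fold of 1.5 between the arrays of a line was used to describe sizes. In KMS11, 3 of the 4 genes were at least 1.5-fold lower with the knockdown (ASNS, SESN2 and STC2), where 0.243% of the tested genes (27) were; PCK2, at 1.42-fold, was not. Because these values chose the genes, nothing is read from that count. In KMS18, KMS34 and OPM2, 0 of the 4 genes were 1.5-fold lower, where 0.081%, 0.135% and 0.099% of tested genes were, and 0 were 1.5-fold higher (0.045%, 0.117% and 0.09%). The median log2 difference of the 4 genes was -0.82 (KMS11), 0.13 (KMS18), 0.06 (KMS34) and 0.17 (OPM2), and that of all tested genes was between -0.0121 and 0.0030. The general spread of differences was slightly wider in KMS11, with a standard deviation over the tested genes of 0.181, than in KMS18, KMS34 and OPM2 (0.156 to 0.160).

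**Figure D2:**
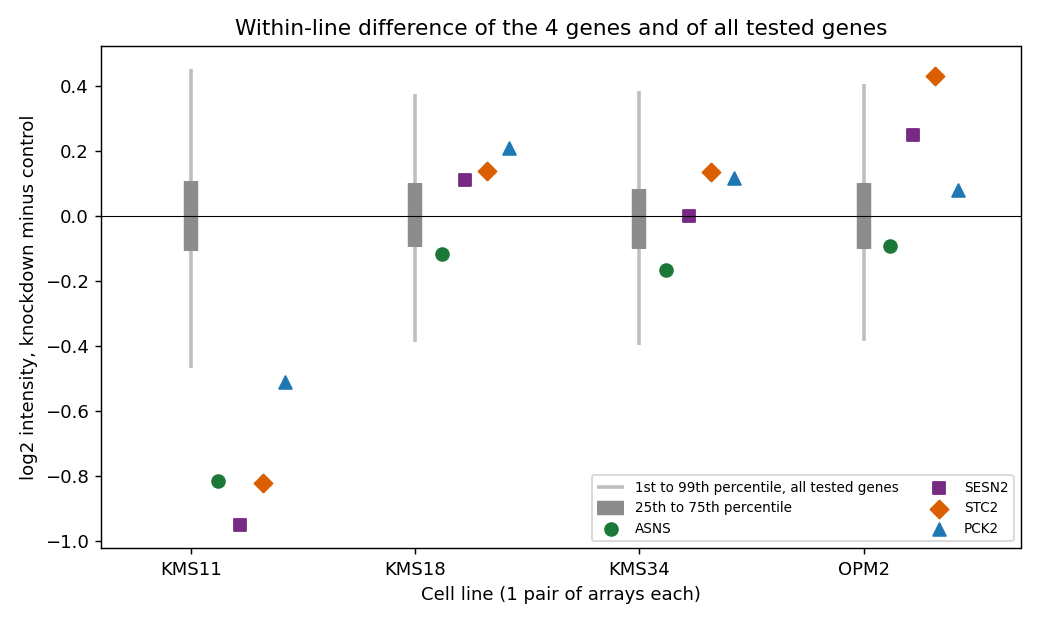
The log2 intensity difference, knockdown minus control, of the 4 genes in each cell line (coloured symbols), beside the 25th to 75th percentile (thick grey bar) and the 1st to 99th percentile (thin grey bar) of the 11109 tested genes. In KMS11 the symbols lie between -0.95 and -0.51, under the 1st percentile of -0.47; in the other lines they lie between -0.17 and 0.43.

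The mean over the 4 lines mixes these directions. It was -0.30 for ASNS, -0.15 for SESN2, -0.03 for STC2 and -0.03 for PCK2, with standard deviations of the 4 differences of 0.347, 0.547, 0.547 and 0.328. Under limma's test over all genes with cell line as a block, 0 of the 4 genes were among the genes called (0.117% of tested genes), a count from which nothing is read either. The means of STC2 and PCK2 lay near 0: quantile normalization gave 0.010 for STC2, a turned sign, and -0.0011 for PCK2. Without KMS11 the sign of the mean turned for SESN2, STC2 and PCK2.

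KMS18, KMS34 and OPM2, whose fall did not choose the genes, were tested by themselves. Their values were known when the genes were chosen for a fall in KMS11. The test, its intervals and its counts of signs are therefore not fully free of that choice. In limma over KMS18, KMS34 and OPM2 with cell line as a block, 0 of the 4 genes passed a Benjamini-Hochberg adjusted p of 0.05 over all genes, where 0.018% of tested genes (2) did. STC2 had the largest mean difference, 0.24 with a standard error of 0.082 and a 95% interval of 0.06 to 0.41. It was higher with the knockdown in 3 of 3 lines, as were 13.6% of the tested genes, and its limma p was 0.0133 unadjusted (6.79% of tested genes were under 0.05) and 0.604 adjusted. Without OPM2, the line with the largest STC2 difference, the mean was 0.14.

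PCK2 had a mean of 0.14 (95% interval -0.02 to 0.30, limma adjusted p = 0.767) and was higher in 3 of 3 lines. SESN2 had a mean of 0.12 (95% interval -0.05 to 0.29, limma adjusted p = 0.814), also higher in 3 of 3 lines, though by only 0.0015 in KMS34, and its mean without OPM2 was 0.06. ASNS had a mean of -0.12 (95% interval -0.28 to 0.03, limma adjusted p = 0.794) and was lower in 3 of 3 lines, as were 14.5% of tested genes. For these 3 lines the intervals thus reach from 1.22-fold lower for ASNS to 1.33-fold higher for STC2. The genes were known to stand lower in KMS11 than in these lines when they were chosen, so the contrast between KMS11 and the rest was not tested.

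**Figure D3:**
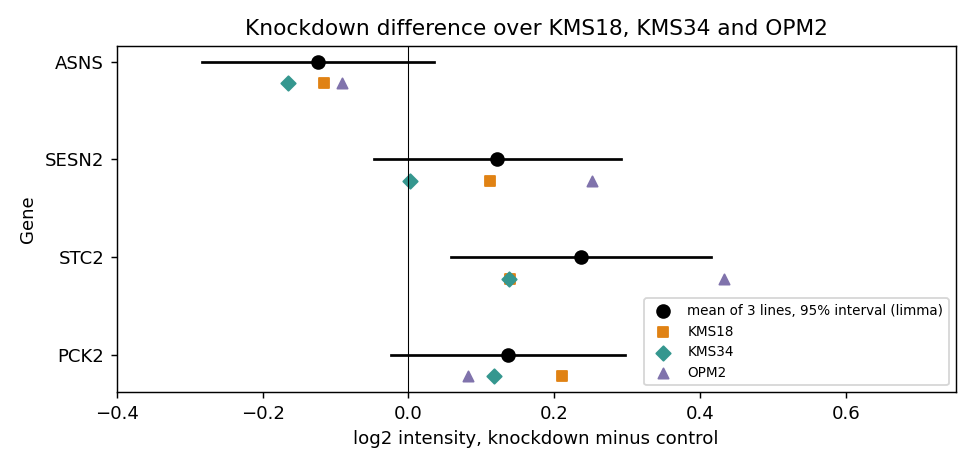
Mean log2 difference, knockdown minus control, over KMS18, KMS34 and OPM2 for each of the 4 genes (black points) with the 95% interval from limma (black bars), and the value of each line under it (coloured symbols). The interval of STC2 (0.06 to 0.41) lies above 0 and those of the other genes include 0; none of the 4 passed after adjustment over all genes.

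The 4 genes also differed in level between lines. KMS34 had the highest level of ASNS, SESN2, STC2 and PCK2 in both knockdown and control arrays, and KMS18 the next. Because the KMS11 knockdown array helped to choose the genes, levels were tested only between KMS18, KMS34 and OPM2, and those of KMS11 are given as a description. All 4 genes differed between these 3 lines in limma's moderated F test, with adjusted p of 6.72e-09 for ASNS, 8.96e-09 for SESN2, 1.70e-10 for STC2 and 1.40e-06 for PCK2, where 64.4% of tested genes passed. The means of these lines spanned 7.26-fold for STC2, 3.56-fold for SESN2, 3.35-fold for ASNS and 2.05-fold for PCK2, in each case KMS34 over OPM2, a pair between which 51.1% of tested genes passed. Over the 4 control arrays the brightest line exceeded the dimmest 8.04-fold for STC2, 3.88-fold for SESN2, 3.43-fold for ASNS and 2.13-fold for PCK2, against a median of 1.45-fold over all tested genes.

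KMS34 stood above KMS18 by 3.30-fold for STC2 (limma without KMS11, adjusted p = 1.36e-08), 2.24-fold for ASNS (2.11e-07), 1.82-fold for SESN2 (6.80e-06) and 1.30-fold for PCK2 (0.00385), where 49.1% of tested genes passed. KMS18 stood above OPM2 by 2.20-fold for STC2 (limma without KMS11, adjusted p = 8.42e-07), 1.95-fold for SESN2 (2.46e-06), 1.57-fold for PCK2 (5.68e-05) and 1.496-fold for ASNS (0.000138), where 39.6% passed. These pair tests were added after the data were seen, and their residual is the scatter of the knockdown differences over the 3 lines. In control arrays KMS18 read 1.59 times KMS11 for PCK2, 1.20 times for SESN2, 1.13 times for ASNS and 1.07 times for STC2, with 1 array each and no test.

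KMS11 and OPM2, the low lines, changed places with the condition for ASNS, SESN2 and STC2. The genes were chosen for their fall with the knockdown in KMS11, so this change of places is a description without a test. The share of all tested genes that changed places likewise is not given here. In knockdown arrays KMS11 lay below OPM2 for ASNS, SESN2, STC2 and PCK2, while in control arrays KMS11 lay above OPM2 for ASNS (370 against 277), SESN2 (499 against 293) and STC2 (185 against 81.4) and below it for PCK2 (142 against 150).

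The order KMS34, then KMS18, then KMS11 and OPM2 held in the control arrays for all 4 genes. It was described from their own levels, so for them it is no test. The same order held for 6.99% of the tested genes. Of 36 further tested ATF4 targets (stress genes, serine and one-carbon genes and tRNA synthetases), 9 showed it, and KMS34 was the highest control array for 19 of the 36 against 24.1% of tested genes. In knockdown arrays KMS34 was the highest for 21 of the 36 and for 22.7% of tested genes. Most regular were the 7 serine, one-carbon and transsulfuration genes, of which 7 were highest in KMS34 and 5 followed the full order in control arrays. PSAT1, which encodes phosphoserine aminotransferase, read 2718 in KMS34, 2536 in KMS18, 562 in KMS11 and 51.3 in OPM2 in knockdown arrays and 2736, 2278, 1024 and 57.1 in control arrays. ATF4 itself differed between KMS18, KMS34 and OPM2 (limma F test, adjusted p = 0.00841), whose means spanned 1.31-fold, but did not pass between all 4 lines (limma F test over 8 arrays, adjusted p = 0.0604).

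Upstream of the 4 genes, ATF4 had intensities of 903 (KMS11), 851 (KMS18), 1181 (KMS34) and 1068 (OPM2) in knockdown arrays and of 1221, 920, 1142 and 987 in control arrays. It too was lower with the knockdown in KMS11, by -0.44 on the log2 scale, and its other differences were -0.11 in KMS18, 0.05 in KMS34 and 0.11 in OPM2. ATF4 passed limma neither over 4 lines (mean -0.10, adjusted p = 0.798) nor over KMS18, KMS34 and OPM2 (mean 0.02, adjusted p = 0.983). The array measures ATF4 RNA, whereas ATF4 is known to be set mainly by translation.

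All 4 eIF2 kinases were measured, and 0 passed in either fit; at an unadjusted limma p under 0.05 were 2 over 4 lines (EIF2AK2 and EIF2AK3, both higher) and 0 over KMS18, KMS34 and OPM2, where 8.41% and 6.79% of tested genes were. In KMS11 the difference was 0.30 for EIF2AK3 (PERK, the ER stress kinase), 0.25 for EIF2AK2 (PKR, activated by double-stranded RNA), -0.01 for EIF2AK4 (GCN2, activated by uncharged tRNA) and -0.07 for EIF2AK1 (HRI, the heme-regulated kinase). Of the 9 measured genes for ATF4 and its partners and feedback proteins, 0 passed in either fit. With an unadjusted limma p under 0.05 there was 1, the pseudokinase gene TRIB1, which was higher in both fits and differed by 0.70 in OPM2; the shares of all tested genes were again 8.41% and 6.79%. DDIT3, which encodes CHOP, differed by -0.07 (KMS11), 0.28 (KMS18), -0.01 (KMS34) and -0.35 (OPM2), and ATF3 by -0.19, 0.18, 0.25 and -0.02 in the same lines.

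Among the 36 other ATF4 targets the KMS11 difference was below 0 for 32, where 50.5% of all tested genes were below 0, with a median of -0.19. In KMS18 5 of the 36 were below 0, in KMS34 25 and in OPM2 18, where 49.1%, 53.4% and 49.4% of all tested genes were, with medians of 0.07, -0.03 and -0.0006. These lists were drawn up with the KMS11 result known, so their counts are a description. Limma called 0 of the 36 over 4 lines and 0 over KMS18, KMS34 and OPM2, with 8 (5 lower, 3 higher) and 3 (2 lower, 1 higher) at an unadjusted p under 0.05, where 8.41% and 6.79% of tested genes were. At least 1.5-fold lower in KMS11 were 4 of them, where 0.243% of tested genes were: PSAT1 (-0.87), PHGDH (-0.84) and PSPH (-0.75), which encode the enzymes of serine synthesis, and EIF4EBP1 (-0.60), which encodes a translational repressor that mTORC1 inactivates.

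By group of targets, with no test of a difference between groups, the 7 serine, one-carbon and transsulfuration genes had a median KMS11 difference of -0.47, with 7 of 7 below 0. The tRNA synthetase genes had a median of -0.44, with 12 of 13 below 0, among them MARS1 for methionine (-0.56), GARS1 for glycine (-0.55) and NARS1 for asparagine (-0.50), while TARS3 differed by 0.26. The 16 other stress targets had a median of -0.09, with 13 of 16 below 0, where 50.5% of tested genes were. TRIB3, a pseudokinase that feeds back on ATF4, read 159 in the KMS11 knockdown array and 168 in the control array, a difference of -0.08, and DDIT4, a stress-induced inhibitor of mTORC1, differed by -0.15. The lipoprotein receptor gene VLDLR differed by 0.36 and the hormone gene FGF21 by 0.14. FGF21 was dim, at 63.0 in the KMS11 knockdown array and 57.2 in the KMS11 control array. The 12 amino acid transporter targets on the list were not analysed here.

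**Figure D4:**
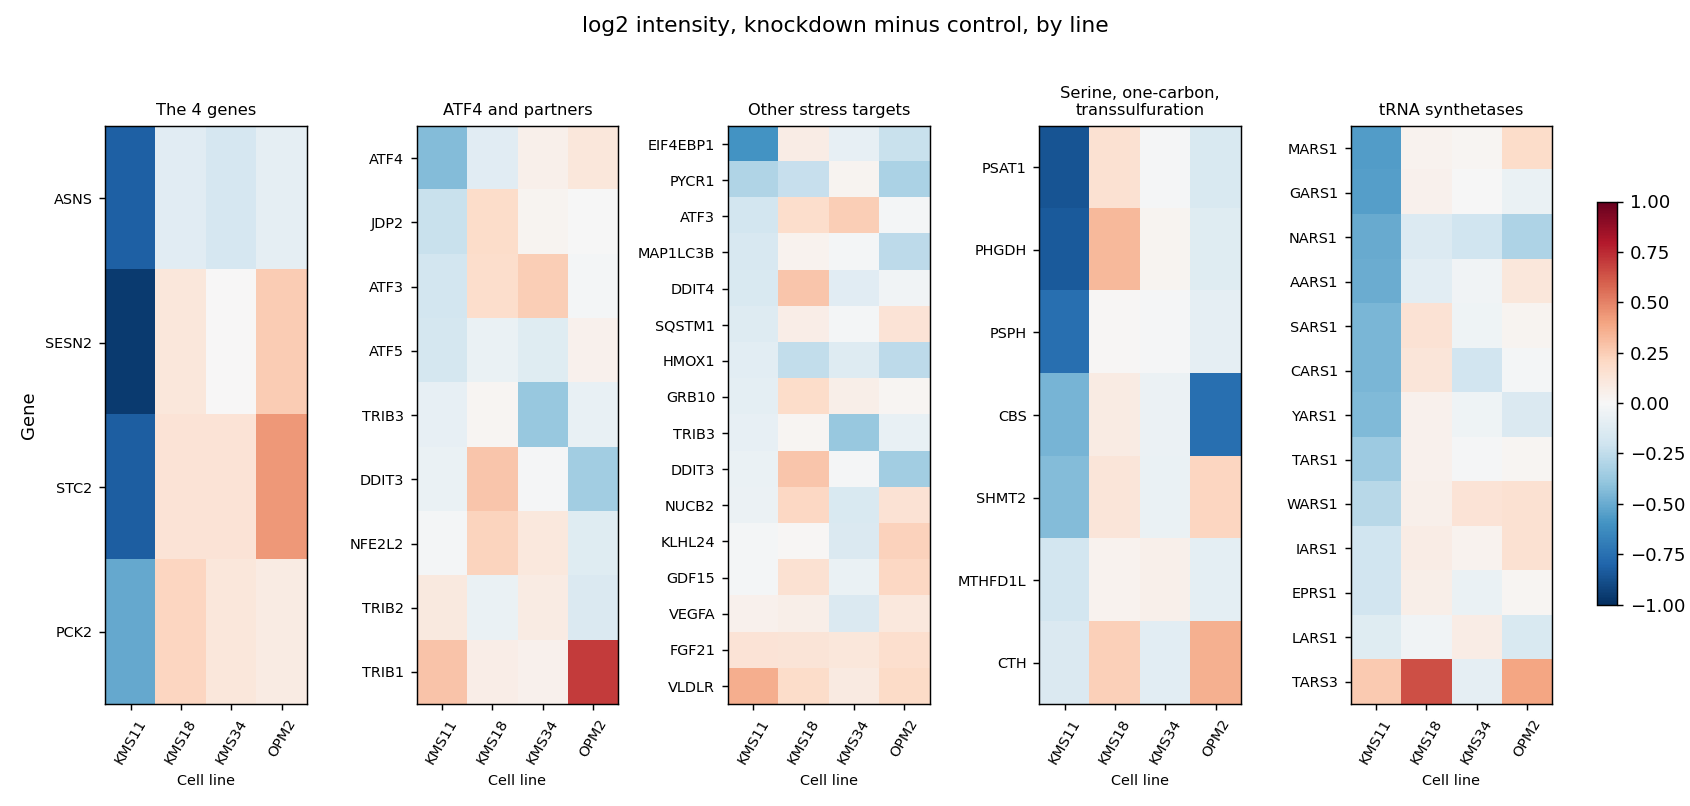
Log2 intensity difference, knockdown minus control, per cell line (columns) for ASNS, SESN2, STC2 and PCK2 (left) and for the tested genes of 4 lists around ATF4, sorted by the KMS11 value; blue is lower and red higher with the knockdown, and ATF3, DDIT3 and TRIB3 stand in 2 lists. The KMS11 column is blue for 12 of 13 tRNA synthetase genes and 7 of 7 serine, one-carbon and transsulfuration genes, and the columns of the other lines are paler, with single exceptions such as CBS in OPM2 (-0.75).

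The composite motif was also looked up in the promoters of these targets. Counted per gene with any window, 4.46% of all 27305 genes in the table hold it. It was present for 7 of the 10 tRNA synthetase genes that had a promoter window, AARS1, CARS1, GARS1, IARS1, MARS1, NARS1 and TARS1. It was present for 2 of 12 of the other stress targets with a window, ATF3 and FGF21, and for 1 of 5 serine and one-carbon genes, MTHFD1L. The KMS11 difference was -0.19 for ATF3, 0.14 for FGF21 and -0.18 for MTHFD1L.

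Partners of each gene's own pathway were followed next. Around ASNS, 7 genes of asparagine and aspartate metabolism were tested and 0 passed in either fit, with 1 lower at an unadjusted limma p under 0.05 over 4 lines and 2 lower over KMS18, KMS34 and OPM2 (8.41% and 6.79% of tested genes, in either direction). The asparaginyl-tRNA synthetase gene NARS1, which uses the product of ASNS, was lower in 4 of 4 lines. Its mean over 4 lines was -0.29 (limma, adjusted p = 0.265). NARS1 was named for having the lowest mean of its list. What share of tested genes was lower in 4 of 4 lines is not given here. GLUL, the glutamine synthetase gene, differed by 0.21 in KMS11 and by -0.21, -0.27 and -0.13 in KMS18, KMS34 and OPM2. The list had a median of -0.05 in KMS11.

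Around SESN2, 23 genes of the sestrin, GATOR and mTORC1 pathway were tested and 0 passed in either fit, while 5 had an unadjusted limma p under 0.05 over 4 lines (2 lower, 3 higher) and 5 over KMS18, KMS34 and OPM2 (3 lower, 2 higher), where 8.41% and 6.79% of tested genes did. Their median in KMS11 was 0.01, with 11 of 23 below 0, where 50.5% of tested genes were. The paralog SESN1, a p53 target, had intensities of 175 to 206 in knockdown arrays and 162 to 184 in control arrays and was higher in 4 of 4 lines, by 0.09 to 0.17. The other paralog, SESN3, differed by 0.24 in KMS11 and by -0.09, -0.19 and -0.41 in KMS18, KMS34 and OPM2, so its sign was the reverse of that of SESN2 in 4 of 4 lines, with SESN2 near 0 in KMS34. The Rag GTPase genes RRAGC and RRAGD, whose proteins bring mTORC1 to the lysosome, were higher in 4 of 4 lines. Their means over 4 lines were 0.24 each (limma, adjusted p = 0.282 and 0.297). RRAGC and RRAGD were named for having the highest means of their list. The share of tested genes with the same sign in 4 of 4 lines is not given here.

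Around STC2, 5 genes were tested and 0 passed in either fit, nor did any have an unadjusted limma p under 0.05, where 8.41% and 6.79% of tested genes did. IGFBP4, a substrate of PAPP-A, differed by 0.47 in KMS11 and by -0.14, 0.09 and -0.09 in KMS18, KMS34 and OPM2. PAPPA2 differed by 0.23, -0.05, -0.21 and -0.11 in the same lines and was dim, at 42.9 to 55.0. STC1, the paralog of STC2, was dim, at 30.5 to 36.0 in knockdown arrays and 29.2 to 36.8 in control arrays, and fell under the brightness limit of 46.7 for testing. Around PCK2, 1 partner was tested, the pyruvate carboxylase gene PC, which makes oxaloacetate in mitochondria. It differed by -0.19 (KMS11), -0.10 (KMS18), 0.11 (KMS34) and -0.09 (OPM2) and did not pass in either fit (limma, adjusted p = 0.822 over 4 lines). PCK1, the cytosolic paralog, was dim at 43.8 to 47.9 in knockdown arrays and 41.7 to 55.0 in control arrays and was not tested.

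STC2 and SESN2 also respond to other stress pathways, so genes of those were set beside them. Of 21 genes listed for the XBP1 and ATF6 branches, 10 were tested, and HSPA5, HSP90B1, DNAJB9 and HERPUD1 were not. Of 15 p53 targets listed, 7 were tested, and CDKN1A and MDM2 were not. Whether these pathways changed as a whole can therefore not be read from the tested genes. Of 10 genes of the XBP1 and ATF6 branches of the unfolded protein response, 0 passed in either fit, with 0 and 1 (SEC61B, higher) at an unadjusted limma p under 0.05 against 8.41% and 6.79% of tested genes, and their median in KMS11 was -0.02. Of 7 p53 targets 0 passed, with 1 (SESN1, higher) and 0 at an unadjusted p under 0.05 against the same shares, and their median in KMS11 was -0.11. The myeloid markers also read lower in KMS11, with a median of -0.27 over 4 tested genes. Of these, 4 of 4 were below 0 in KMS11, where 50.5% of all tested genes were. They ranged from 48.6 (MPO) to 154 (S100A9) over all arrays, and CD14, LYZ, S100A8 and CD163 were too dim to be tested. The summed intensity of the tested myeloid markers was 312 to 392 in knockdown arrays and 341 to 391 in control arrays. T and NK markers had a median of 0.05 in KMS11 and summed to 420 to 510 in knockdown arrays and 416 to 457 in control arrays. The part of these shifts in the KMS11 values was not tested.

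The genes most like each of the 4 in level were found by Pearson's r of log2 intensity over the 8 arrays, which come in pairs of the same line and were scaled together, so r mostly follows the differences between lines. The nearest genes to SESN2 were the seryl-tRNA synthetase gene SARS1 (r = 0.992), the serine hydroxymethyltransferase gene SHMT2 (0.986) and the pseudogene ZNF733P (0.977). ASNS was nearest to TSPAN15 (0.988), SARS1 (0.976) and RBM6 (0.974), STC2 to TSPAN15 (0.986), NME6 (0.985) and OXR1 (0.983), and PCK2 to NBR2 (0.991), AMZ2 (0.983) and the readthrough gene DNAAF4-CCPG1 (0.981). Among the 4 genes, r was 0.972 for SESN2 and STC2, 0.971 for ASNS and SESN2, 0.969 for ASNS and STC2, 0.930 for SESN2 and PCK2, 0.886 for ASNS and PCK2 and 0.852 for STC2 and PCK2.

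Likeness of the knockdown response was taken as the Euclidean distance of a gene's 4 within-line differences from the median differences of the 4 genes. The 8 nearest genes were MARS1 (0.279), RPS18 (0.287), ULBP1 (0.287), PSPH (0.300), AQP5 (0.305), ALDH2 (0.317), FLJ36000 (0.321) and HNRNPA1P33 (0.324). The 4 genes themselves lay at 0.170 for SESN2, 0.278 for STC2, 0.336 for PCK2 and 0.418 for ASNS, so all 8 were nearer than ASNS, which alone of the 4 was lower in every line. MARS1 and PSPH are ATF4 targets of the lists above, which were drawn up with the KMS11 result known, so this overlap is a description. ULBP1, which encodes a stress ligand of the NKG2D receptor, had intensities of 44.6 (KMS11), 29.2 (KMS18), 143 (KMS34) and 39.6 (OPM2) in knockdown arrays and of 66.5, 24.9, 136 and 38.1 in control arrays. It lay under the brightness limit of 46.7 in both arrays of KMS18 and OPM2 and in the KMS11 knockdown array, and its mean of 53.1 passed that limit. FLJ36000 (39.0) and HNRNPA1P33 (35.6) also lay under the brightness limit in the KMS11 knockdown array, and ALDH2 (49.4) was close to it there. RPS18 and HNRNPA1P33 have near-identical copies in the genome and their signal is uncertain.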

How the data were processed

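ASNS, SESN2, STC2, PCK2 and their pathway lists were chosen with earlier results of these data known. The authors deposited 1 linear intensity per array and row, analysed in GeneSpring per the series text; the background correction, normalization and summarization are not given in the sources used here. The arrays' near-equal quartiles (upper ones 107.6 to 109.3) point to a common scaling. Depth does not apply to arrays, and precision is limited by their number.

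Rows with 1 platform symbol (15835 of 44629) were kept, each gene was represented by its brightest row, log2 was taken, and genes with a mean under the 25th percentile (intensity 46.7) were left out. The design, written for log2 values, was kept. Tests used limma 3.58.1 in R 4.3.3 (lmFit, eBayes) with cell line as a block and were tested on simulated data. Arrays were paired by the cell line of the labels: deviations from the group mean correlated at 0.925 to 0.932 within a line. Named genes were ASNS, SESN2, STC2, PCK2, NSD2, ATF4, the eIF2 kinases, paralogs, up to 4 genes per list and direction, and the nearest genes by likeness. DDIT4 and, for their promoters, AARS1, IARS1 and TARS1 were named outside this rule after their values were seen. Normalization, brightness filter, row choice, eBayes options, the block and the lines included were varied. Levels were tested between lines without KMS11 instead of over all 8 arrays as designed. Nothing says that the arrays of a line came from separate cultures. In the fits with the block, p-values rest on the scatter of the within-line knockdown differences over the lines, moderated by eBayes.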

Additional observations from a re-analysis of the deposited data

Results flagged for a closer look

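ASNS in KMS11 was singled out because its knockdown difference there, -0.8164 on the log2 scale, stood apart from the differences in KMS18, KMS34 and OPM2 (-0.17 to -0.09): the gap to the nearest line was 0.897 of the whole range, above the 95% critical value of 0.829 for 4 values. The share was 0.820 for PCK2, 0.793 for SESN2 and 0.764 for STC2, each with KMS11 as the far line and below that value. In all, 12 groups of 4 values were examined and 1 was singled out, and chance singles out about 1 in 20 such groups. ASNS was chosen for this difference, so it is no independent evidence.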

How the results depend on the processing

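The within-line differences of ASNS, SESN2, STC2 and PCK2 kept their sign and moved by less than their spread over lines under quantile normalization, median centring and the mean of a gene's rows; in KMS11 they ranged from -0.98 to -0.46. Over KMS18, KMS34 and OPM2 they kept their sign in all 10 alternatives run, with a smallest limma adjusted p of 0.433. Their means over 4 lines, near 0 for STC2 and PCK2, became 0.010 and -0.0011 with quantile normalization. The F test between lines over 8 arrays, planned as the main one, holds the KMS11 knockdown array, so nothing is read from it for the 4 genes; it called 8412 genes, and 7156 without KMS11. Counts over all genes moved more. Calls over 4 lines, 13 in the main test, were 7 with arrays centred on the median, 29 with trend and robust eBayes, 4 without the brightness filter, 0 with limma without the cell line block (18 at an unadjusted p under 0.05) and 1 to 2 without any 1 line. Calls over KMS18, KMS34 and OPM2, 2 in the main test, were 17 with trend and robust, 8 with the filter at the 50th percentile, 4 with the mean of rows, 1 with quantile normalization, 0 with limma without the filter (977 at an unadjusted p under 0.05) and 0 without the block (16). Without 1 line they ranged from 1 (without KMS18) to 50 (without OPM2); the cause was not tested. Genes at least 1.5-fold lower in KMS18 were 17 with quantile normalization, against 9. The largest shift of the median of all genes by a scaling was -0.0243 (KMS11, median centring). The cell line block changed no call of the 4 genes.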
